A study of Mus musculus with 4 samples.

Results

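The ErbB family of receptor tyrosine kinases and the epidermal growth factor (EGF)-like ligands that bind them were examined in hyperplastic mouse mammary glands. The 10 genes, the receptors Egfr, Erbb2, Erbb3 and Erbb4 and the ligands Areg, Ereg, Hbegf, Tgfa, Btc and Nrg1, were taken by gene name from 25806 listed genes, and each name matched 1 row. There were 2 libraries from glands with a miR-9 knockout and 2 from littermate glands without it. All mice were females that carried MMTV-PyMT, a transgene that puts polyomavirus middle T antigen under a mammary tumour virus promoter active in mammary epithelium, on a mixed C57BL/6 background. The knockout removed exon 1 of miR-9 and was bred from heterozygous mice. The labels give neither which miR-9 gene was deleted, nor whether the glands were homozygous, nor the age of the mice, nor whether a library came from 1 animal or a pool. Middle T is a membrane protein that recruits SRC-family kinases, SHC1 and PI3-kinase, so the controls carry an active oncogene of this signalling route as well.

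EGF-like ligands are made as membrane proteins and released by proteases such as ADAM17. They bind EGFR or ERBB4, or, for the neuregulins, ERBB3 and ERBB4, and the receptors then pair and signal through the RAS-ERK and PI3K-AKT chains. ERBB2 has no known ligand and acts as the preferred partner, while ERBB3 has little kinase activity of its own. In the mammary gland, amphiregulin (Areg) is induced by estrogen in hormone-sensing luminal cells and acts on stromal EGFR during duct growth, and ERBB4 acts through STAT5 in milk-producing cells.

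The microRNA targeted by the knockout is shown with the 3' UTR words that could pair with it, as the sequence context of the deletion. Both mature strands are encoded by the 3 loci Mir9-1, Mir9-2 and Mir9-3 (RefSeq, GRCm38.p6), and capitals mark the seed, bases 2 to 8.
mmu-miR-9-5p: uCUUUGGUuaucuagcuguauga
mmu-miR-9-3p: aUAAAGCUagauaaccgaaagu
The longest annotated 3' UTR of each gene (GENCODE M21) was searched for the 8-base word that pairs with the seed and is followed by A, and for its 7-base forms with or without that A. Of the 10 genes, 3 held a miR-9-5p word (Erbb4, Ereg and Btc), all of the 7-base forms, and 3 held a miR-9-3p word (Egfr, Tgfa and Nrg1), of which Nrg1 had the 8-base form. Among 15861 tested genes with a 3' UTR the shares were 21.9% for miR-9-5p and 18.5% for miR-9-3p. The median 3' UTR of those genes had 1095 bases, against 7855 in Erbb4 and 6303 in Egfr, and the shares are not matched for length. Areg had the shortest of the family, at 253 bases, and held neither word. The miR-9-5p words of the family and the 8-base miR-9-3p word of Nrg1 are given on GRCm38 with the match in capitals.
Erbb4, chr1:68037009-68037015, minus strand: tagggaggaaattatCCAAAGAgtgtatta
Ereg, chr5:91092709-91092715, plus strand: cacactatactgagaACCAAAGcaacccca
Ereg, chr5:91092949-91092955, plus strand: actgtgtgagaaaagCCAAAGAtttttttt
Btc, chr5:91357589-91357595, minus strand: gtccctggttgactgACCAAAGcagtcaat
Nrg1 (miR-9-3p), chr8:31817275-31817282, minus strand: ttgataaagagtaacAGCTTTAAgtacagc
A match is a description of the sequence and does not show binding. No miR-9 level was analysed here, so the deletion could not be checked in these libraries.

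Levels below are normalised read counts, the deposited values, in which 1 read is worth between 0.971 and 1.03 in every library. They summed to 15904798 and 16073229 in knockouts 1 and 2 and to 16378833 and 16418668 in controls 1 and 2. Fold changes are knockout minus control on the log2(value + 1) scale and come from limma fitted to 22455 genes, each with a value of at least 1 in at least 2 libraries. All 10 genes passed that filter. With 2 libraries a group the smallest two-sided p of an exact permutation test is 0.33. The labels do not say that the libraries came from separate animals, so the p-values reflect the spread between these libraries, which may be technical. The tissue label was checked on epithelial markers: the keratin gene Krt8 stood at 20421 and 18175 in the knockouts and 21205 and 22596 in the controls.

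No gene of the family passed an adjusted p of 0.05 (0 of 10, where 0.583% of all tested genes passed), and 2 of the 10, Areg and Tgfa, had an unadjusted limma p under 0.05, near the 18.0% of all tested genes. In 6 of the 10 the knockouts did not overlap the controls, against 51.2% of all tested genes: 4 lay above (25.5% of all tested genes) and 2 below (25.6%). A log2 fold change of 0.5 or more in size was found in 6 of the 10, against 35.3% of all tested genes, and 4 of the 10 (Egfr, Erbb2, Erbb4 and Nrg1) were lowest in control 2, against 34.7%. Calls in the alternatives are read against their own backgrounds, which were 0.147% and 1.15% of genes with pseudocounts of 0.1 and 5, 1.29% with no filter, 0.400% with values of at least 10, 1.14% with quantile normalisation, 0.668% with equal library sums, 0.796% without control 2 and 1.63% with replicate number as a block. None of the 10 genes passed in any of these. The median log2 fold change was 0.30 over the 10 genes and 0.00 over all genes tested. Within the family the ligand Areg had the largest difference, with a knockout mean 3.55 times the control mean, and Erbb2 and Erbb3 had the smallest.

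**Figure D1:**
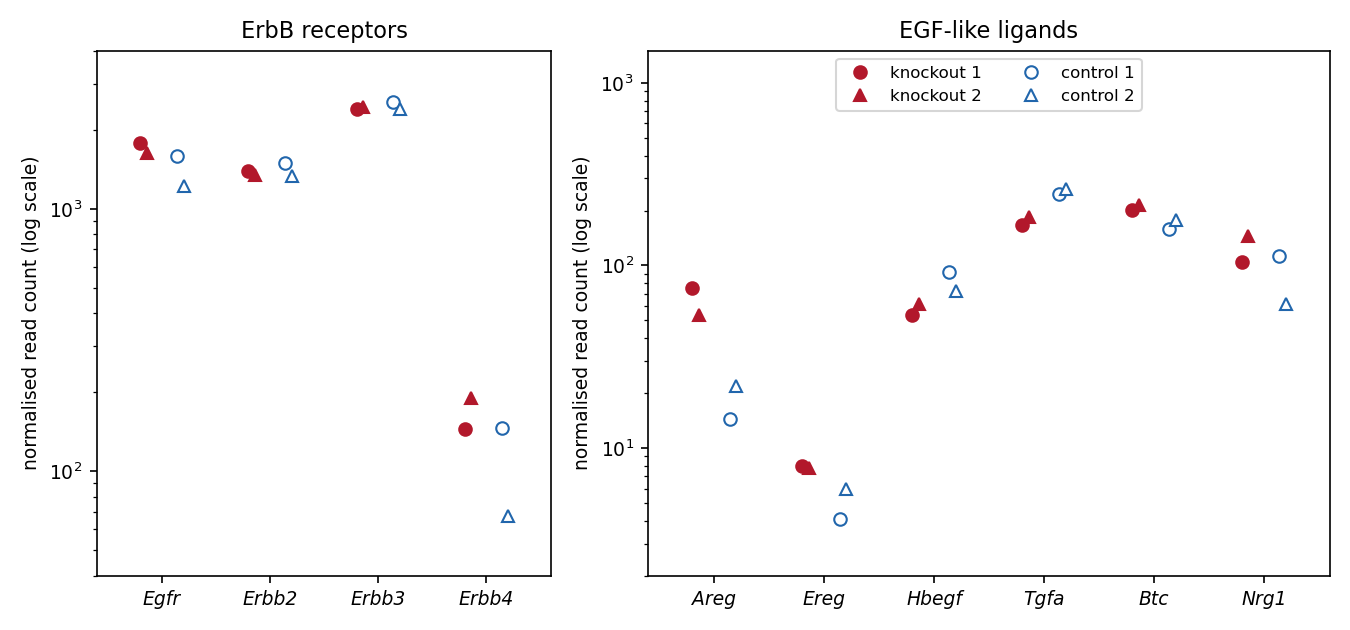
Normalised read count (log scale) of each ErbB receptor (left) and EGF-like ligand (right) in every library, with knockout libraries filled and control libraries open. The knockouts lie above both controls for Egfr, Areg, Ereg and Btc and below both for Hbegf and Tgfa, and Areg is the gene with the widest gap.

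Of the receptors, Erbb2 and Erbb3 had nearly the same values in both groups. Erbb2 (ENSMUSG00000062312, GRCm38 chromosome 11, 98412470 to 98437716), the receptor amplified in a class of human breast cancers, stood at 1394 and 1349 in the knockouts and 1491 and 1328 in the controls. The groups overlapped, and the log2 fold change was -0.04 with a 95% interval from -0.29 to 0.22 (limma adjusted p = 0.898). Erbb3 (ENSMUSG00000018166, chromosome 10, 128567523 to 128589652), the neuregulin receptor with the weak kinase, had 2401 and 2439 in the knockouts and 2548 and 2401 in the controls. Its log2 fold change was -0.03, with an interval from -0.26 to 0.20 (limma adjusted p = 0.902). For both genes a change of 0.3 or more in either direction therefore lay outside the interval, and the sign of both turned with quantile normalisation and without control 1. The gene Mien1 overlaps Erbb2 by 9 bases on the other strand.

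Egfr (ENSMUSG00000020122, chromosome 11, 16752203 to 16918158), the receptor of amphiregulin, TGF-alpha and EGF, had 1782 and 1629 in the knockouts and 1594 and 1218 in the controls. The groups did not overlap, but knockout 2 and control 1 differed by little and control 2 was the low library. The log2 fold change was 0.29 (SE 0.14, interval -0.04 to 0.62, limma adjusted p = 0.326). The antisense gene Egfros inside Egfr had at most 12.6 in any library. Erbb4 (ENSMUSG00000062209, chromosome 1, 68032186 to 69108059), the receptor that acts through STAT5, had 145 and 189 in the knockouts and 146 and 67.8 in the controls. Knockout 1 and control 1 were nearly equal, and the low value of control 2 carried the difference. For Erbb4 the log2 fold change was 0.73, with an interval from -0.14 to 1.61 (SE 0.38; limma adjusted p = 0.346). Without control 1, Egfr and Erbb4 passed the threshold, at 0.48 and 1.28 on the log2 scale (limma adjusted p = 0.0481 and 0.0392), where 11.2% of all tested genes passed. Without control 2 the same changes were 0.10 and 0.18 (limma adjusted p = 0.757 and 0.804), and over all alternatives the adjusted p ran from 0.0481 to 0.787 for Egfr and from 0.0392 to 0.804 for Erbb4.

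The summed stromal and myoepithelial markers were also lowest in control 2, as were the endothelial, adipocyte, hormone-sensing luminal, macrophage, T cell and B cell sums. The luminal epithelium, luminal progenitor, Schwann cell and skeletal muscle sums were not lowest there. The summed value of 6 fibroblast markers was 41815 and 28731 in the knockouts and 30455 and 15883 in the controls, and 2 of the 6 had both knockouts above both controls. For 6 basal and myoepithelial markers the sums were 22275 and 24893 in the knockouts and 14292 and 7254 in the controls. Of these 6, 5 had both knockouts above both controls and 1 had both below. Of all tested genes, 25.5% had both knockouts above both controls and 25.6% had both below. No marker of either list was at 0 in any library. Their part in the Egfr and Erbb4 values was not tested, and in whole glands a change in the number of cells of a type and a change in RNA per cell cannot be told apart.

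Amphiregulin had the largest fold difference of the family. Areg (ENSMUSG00000029378, chromosome 5, 91139599 to 91148432), the main EGFR ligand of duct growth, stood at 75.6 and 53.4 in the knockouts and 14.4 and 21.9 in the controls. Both knockouts lay well above both controls, and the libraries within each group also differed, with 64.5 ± 15.7 in the knockouts and 18.2 ± 5.33 in the controls (SD, n = 2 each). The log2 fold change was 1.78 (SE 0.42, interval 0.81 to 2.76) and did not pass the threshold (limma adjusted p = 0.0975). It kept its direction in all 12 alternatives, from 1.49 to 2.07, and passed in none of them, with a limma adjusted p from 0.0627 to 0.732. Since 1 unit is about 1 read, the values rest on between 14.4 and 75.6 such units a library.

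Markers of hormone-sensing luminal cells, in which Areg is normally made, moved in the same direction. Of 9 tested markers, 8 had both knockouts above both controls, where 25.5% of all tested genes did. Past the threshold, 3 rose (Esr1, Pgr and Cited1), where 0.414% of all tested genes did. The summed value of the 9 markers was 11902 and 12722 in the knockouts and 5731 and 3773 in the controls. One marker, the RANK ligand gene Tnfsf11, was at 0 in control 2. The general luminal markers summed to 83810 and 74664 in the knockouts and 84893 and 85921 in the controls. Of these 8 markers, 7 were lower in both knockouts, where 25.6% of all tested genes were. None of these 7 passed the threshold, and the eighth, the keratin gene Krt19, rose past it, with 14371 and 12004 in the knockouts and 7506 and 5887 in the controls (log2 fold change 0.98, limma adjusted p = 0.0351). The part of the hormone-sensing markers in the Areg difference was not tested.

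**Figure D2:**
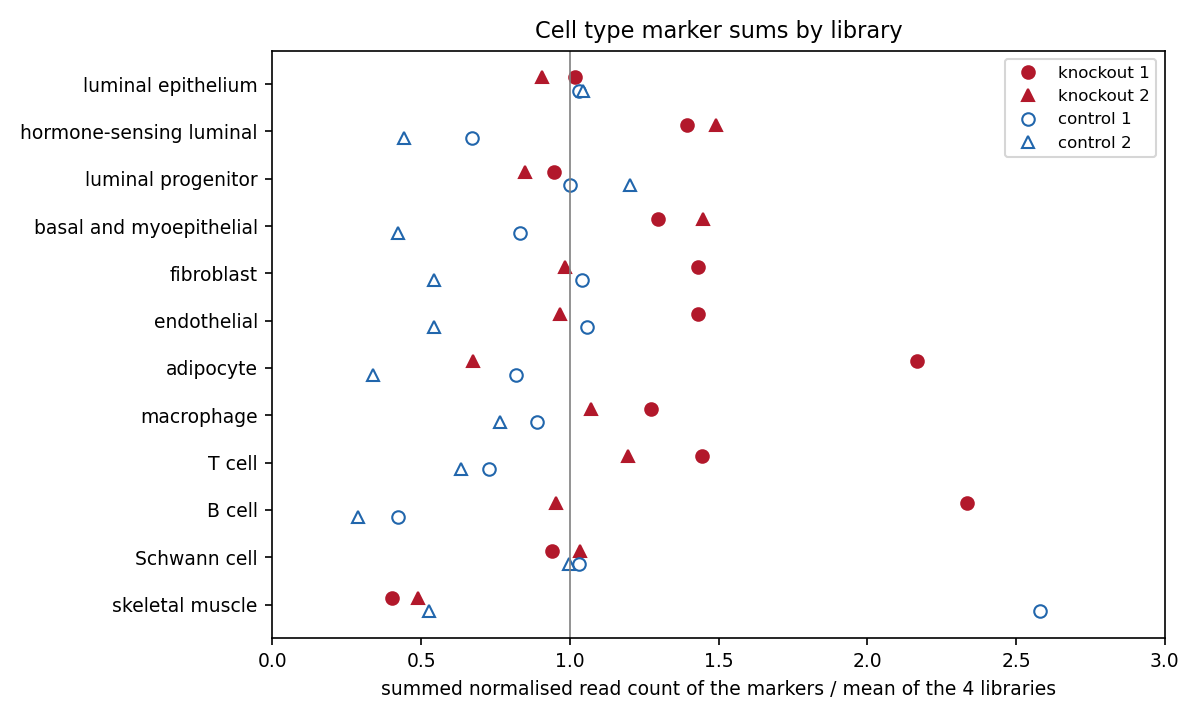
Summed normalised read count of each cell type's markers in every library, divided by the mean of the 4 libraries, with knockouts filled and controls open. The hormone-sensing luminal sums of both knockouts lie above both controls. Control 2 is lowest for the hormone-sensing luminal, basal, fibroblast, endothelial, adipocyte, macrophage, T cell and B cell lists.

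The promoter of Areg is shown because it is the gene with the largest difference and because cAMP and estrogen are known inducers of it. It spans 250 bases before to 50 after the start site (RefSeq, GRCm38.p6, chr5:91139349-91139648, plus strand), and promoters of 6 of the 10 genes were matched in that table. Capitals mark a cAMP response element, TGACGTCA, whose first base lies 61 bases before the start site, and a TATA box, TATAAA, 31 bases before it.
Areg: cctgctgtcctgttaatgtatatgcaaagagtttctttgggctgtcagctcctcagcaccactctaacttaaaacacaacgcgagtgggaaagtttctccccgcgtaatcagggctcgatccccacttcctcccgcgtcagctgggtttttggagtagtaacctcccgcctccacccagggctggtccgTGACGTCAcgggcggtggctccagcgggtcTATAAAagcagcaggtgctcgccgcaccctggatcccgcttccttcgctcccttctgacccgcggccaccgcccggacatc
Motifs were sought on both strands. The cAMP response element was present in 1.79% and the TATA box in 13.6% of 32851 promoters of this length, and of the 6 matched promoters Areg alone held either. The AP-1 element, TGANTCA, present in 7.81% of promoters, and the full palindromic estrogen response element, present in 0.07%, were in none of the 6. The GC box, GGGCGG, present in 35.7%, was in those of Areg, Tgfa and Egfr, and in Areg it did not overlap the words in capitals.

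Tgfa (ENSMUSG00000029999, chromosome 6, 86195223 to 86275719) encodes TGF-alpha, an EGFR ligand that causes mammary hyperplasia when overproduced in mice. It had 167 and 185 in the knockouts and 246 and 262 in the controls, the opposite direction to Areg. The libraries of each group were close together, with 176 ± 12.3 in the knockouts and 254 ± 11.7 in the controls (SD, n = 2 each). The log2 fold change was -0.53 (SE 0.20, interval -0.99 to -0.06), but after adjustment it did not pass (limma adjusted p = 0.230, and 0.114 to 0.742 over the alternatives).

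Hbegf (ENSMUSG00000024486, chromosome 18, 36504929 to 36515805), a ligand of EGFR and ERBB4 bound by the tetraspanin CD9, had 53.7 and 61.2 in the knockouts and 92.5 and 72.7 in the controls. Both knockouts were lower, and the log2 fold change was -0.51 (SE 0.32, limma adjusted p = 0.427). Btc (ENSMUSG00000082361, chromosome 5, 91357261 to 91402994), betacellulin, which also binds both receptors, had 202 and 214 in the knockouts and 159 and 176 in the controls. Both knockouts were higher here, at 0.31 on the log2 scale (SE 0.21, limma adjusted p = 0.469). Ereg (ENSMUSG00000029377, chromosome 5, 91074622 to 91093646), epiregulin, was near the floor at 7.96 and 7.77 in the knockouts and 4.11 and 5.98 in the controls. The log2 fold change, 0.57, was smaller than its SE, 0.61 (limma adjusted p = 0.660). In addition, 152 bases of Ereg overlap the antisense gene Gm19610, whose reads cannot be told apart without a stated strand setting.

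Nrg1 (ENSMUSG00000062991, chromosome 8, 31814551 to 32884029), neuregulin 1, the ligand of ERBB3 and ERBB4, had 104 and 145 in the knockouts and 113 and 61.8 in the controls. The groups overlapped and control 2 was again the low library, as for Erbb4. The log2 fold change was 0.55 (SE 0.36, limma adjusted p = 0.448), and it was 0.98 without control 1 and 0.12 without control 2, with an adjusted p from 0.0954 to 0.900 over the alternatives.

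**Figure D3:**
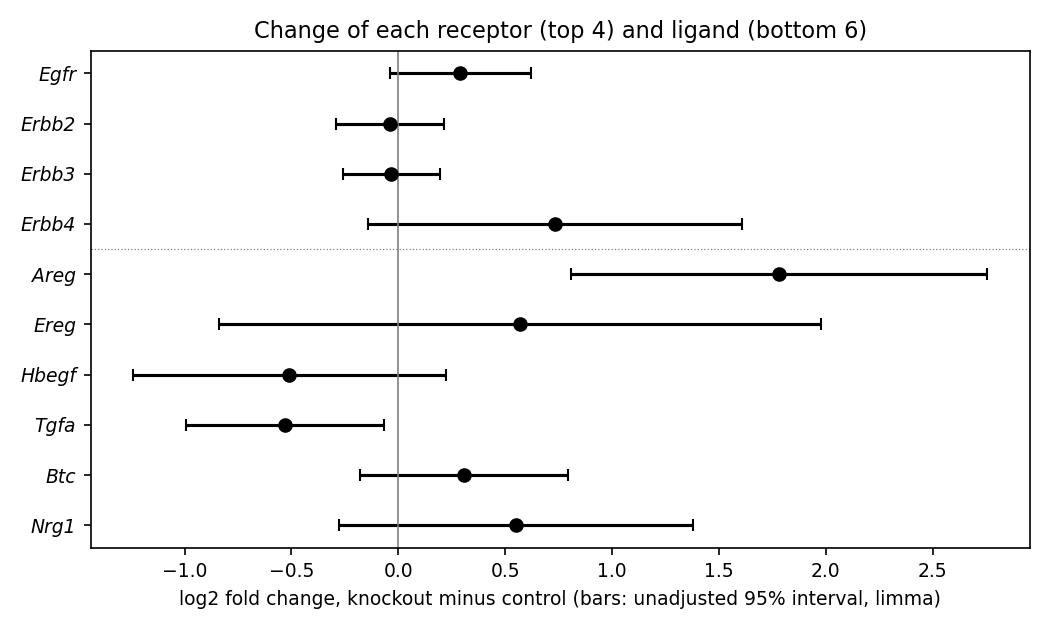
Log2 fold change of each gene, knockout minus control, with its unadjusted 95% interval from limma. The intervals of Areg (0.81 to 2.76) and Tgfa (-0.99 to -0.06) exclude 0 before adjustment, and those of Erbb2 and Erbb3 are narrow around 0.

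Areg, Ereg and Btc lie in 1 cluster on chromosome 5 with epigen (Epgn), a further EGFR ligand, and the 4 genes together span 375.5 kb. Areg, Ereg and Btc had both knockouts above both controls, and Epgn had both below, where 25.5% and 25.6% of all tested genes did. Epgn, which lies first in the cluster, had 2.98 and 6.80 in the knockouts and 17.5 and 25.9 in the controls, -2.0 on the log2 scale (SE 0.60, limma adjusted p = 0.146). Next along, 39.4 kb on, Ereg was near the floor, and Areg follows after another 46.0 kb with its higher knockout values. Btc is on the opposite strand 208.8 kb beyond Areg. The 3' UTR of Epgn held the 8-base miR-9-5p word, which was found in 4.47% of tested genes with a 3' UTR.

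Per length, the receptors Erbb3, Erbb2 and Egfr stood above every ligand among the 10 genes in both groups, and Erbb4 did not. Other ligands were not put on this scale. Values were divided by the merged exon length given in the files, which matched GENCODE M21 for 9 of the 10 genes and differed for Hbegf. Erbb3 was first with 402 ± 4.49 per kilobase in the knockouts and 411 ± 17.2 in the controls (SD, n = 2 each). Erbb2 followed with 263 ± 6.07 and Egfr with 151 ± 9.55 in the knockouts, against 271 ± 22.1 and 124 ± 23.5 in the controls, and the libraries of these neighbours did not overlap in either group. Erbb4 was the lowest receptor at 13.5 ± 2.53 in the knockouts and 8.65 ± 4.47 in the controls, overlapping Nrg1 in both groups.

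The order of the ligands differed between the groups. In the knockouts Areg was highest at 53.1 ± 12.9 per kilobase and overlapped Btc at 46.0 ± 1.83, and Tgfa at 27.1 ± 1.90 overlapped Hbegf at 24.2 ± 2.22. In the controls Tgfa (39.1 ± 1.80), Btc (37.1 ± 2.68) and Hbegf (34.8 ± 5.88) came first with overlapping neighbours, and Areg was below all 3 at 14.9 ± 4.39. Nrg1 had 12.0 ± 2.75 in the knockouts and 8.44 ± 3.50 in the controls, and Ereg was last with 1.91 ± 0.0324 in the knockouts and 1.22 ± 0.32 in the controls. With the length of the longest coding transcript, chosen after seeing the data, Btc at 72.3 came before Areg in the knockouts. Nrg1 at 23.0 then stood clear of Erbb4 at 13.9 in the knockouts, and at 16.1 it came just before Areg in the controls, with overlapping libraries. For Hbegf the files give 2373 bases where the merged exons of GENCODE M21 have 4834. At that length, also tried after seeing the data, Hbegf had 11.9 ± 1.09 in the knockouts and 17.1 ± 2.89 in the controls, and its control libraries, at 19.13 and 15.05, overlapped those of Areg, at 11.8 and 18.0. In the knockouts Hbegf then lay clear below Tgfa. These per-length levels are a description and were not tested between genes.

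**Figure D4:**
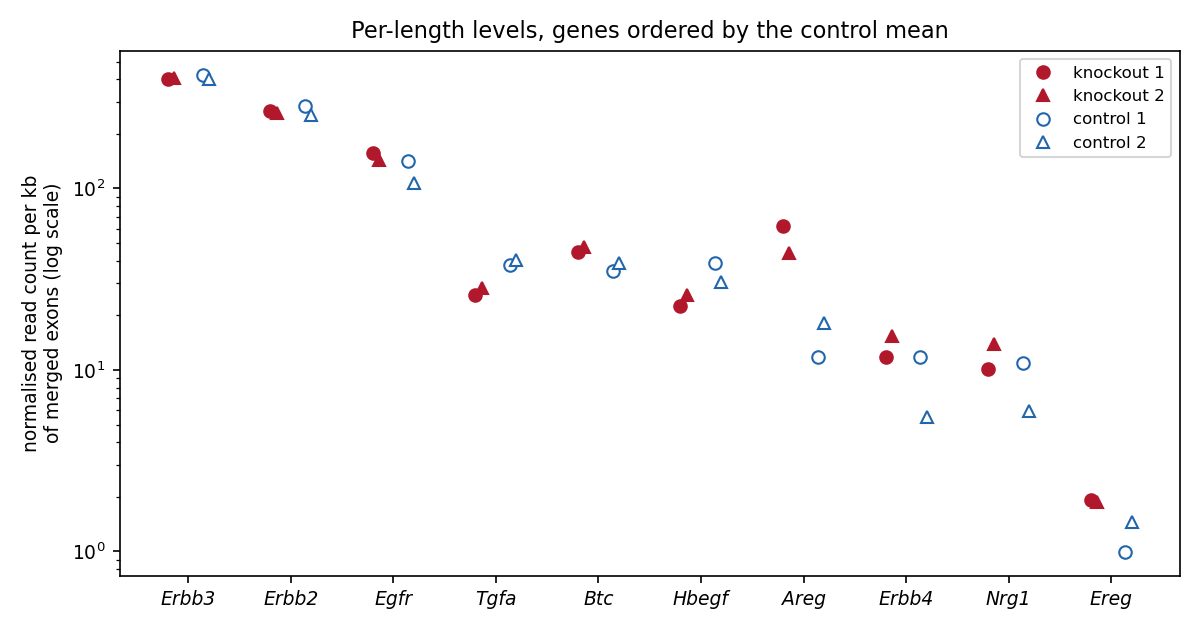
Normalised read count per kilobase of merged exons (log scale) for each gene and library, with genes in the order of their control mean, knockouts filled and controls open. Erbb3, Erbb2 and Egfr lead in both groups, and Areg stands above Hbegf in the knockouts and, at the lengths given in the files, below it in the controls.

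Beyond the 10 genes, 113 genes of the pathway were listed and 111 were tested. Of these, 2 fell past the threshold, Errfi1 and Ier3, and 0 rose, where 0.169% and 0.414% of all tested genes did. Without control 1 there were 17 calls, where 11.2% of all tested genes passed, and without control 2 there were 4, where 0.796% did. Without either knockout library there were 0, as over all genes. At an unadjusted limma p under 0.05 there were 37, of which 10 had higher and 27 lower values, where 10.3% and 7.66% of all tested genes did. The median log2 fold change over the 111 was -0.04.

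Errfi1 encodes MIG6, an inhibitor that binds the kinase domains of ErbB receptors and is induced by their signalling. It had 2215 and 2109 in the knockouts and 3925 and 3320 in the controls, with no overlap. It fell by 0.74 on the log2 scale (SE 0.11, limma adjusted p = 0.0415). The call ended without knockout 1 or knockout 2, where no gene of the whole table passed (limma adjusted p = 0.732 and 0.587), and with a pseudocount of 0.1, values of at least 10, or no trend and robust settings (limma adjusted p = 0.0810, 0.0624 and 0.287). Over the 12 alternatives the limma adjusted p ran from 0.0217 to 0.732, and the log2 fold change from -0.86 to -0.62. It was the only call among 13 tested inhibitors and turnover genes, whose median was -0.11. The ubiquitin ligase gene Cblc had -0.43 and Nedd4 0.25 on the log2 scale (limma adjusted p = 0.252 and 0.258).

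Among genes induced by ERK, the end of the RAS chain, lower values outnumbered higher ones. Ier3, an immediate-early gene, had 1208 and 1001 in the knockouts and 2979 and 2894 in the controls and fell by 1.42 on the log2 scale (SE 0.12, limma adjusted p = 0.00614). It passed in 9 of the 12 alternatives, whose limma adjusted p ran from 0.00156 to 0.732, and not without knockout 1 or knockout 2 (0.732 and 0.551) or without trend and robust settings (0.151). Of 18 tested targets, 1 fell and 0 rose past the threshold, and 10 had both knockouts below both controls, where 25.6% of all tested genes did. Their median was -0.22. The transcription factor gene Egr1 had 1150 and 1203 in the knockouts and 2672 and 1833 in the controls (log2 fold change -0.91, limma adjusted p = 0.0696). Egr1 passed with no filter (limma adjusted p = 0.0494), where 1.29% of all tested genes passed. It passed in no other fit that kept every library. Its log2 fold change was -0.64 without control 1 and -1.18 without control 2. Dusp6, the ERK phosphatase, had 1998 and 2111 in the knockouts and 2952 and 2731 in the controls (log2 fold change -0.47, limma adjusted p = 0.0816). Not all moved that way: the cyclin D1 gene Ccnd1, chosen after its value was seen, had 2946 and 3765 in the knockouts and 2941 and 1733 in the controls.

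None of the genes that make ligands available passed. Rhbdf2, the iRhom that carries ADAM17 to the cell surface, had 1126 and 956 in the knockouts and 1435 and 1595 in the controls (log2 fold change -0.54, limma adjusted p = 0.0900). Timp3, an inhibitor of ADAM17, had 2905 and 2651 in the knockouts and 1136 and 588 in the controls. Both knockouts were above both controls there, at 1.76 on the log2 scale (SE 0.34, limma adjusted p = 0.115). Adam19 had 0.75 on the log2 scale (limma adjusted p = 0.319). Over the 11 tested shedding genes the median was -0.03, with 0 past the threshold in limma and 1 higher and 1 lower at an unadjusted p under 0.05, against 18.0% of all tested genes in either direction. Timp3 passed without control 1 (2.24 on the log2 scale, limma adjusted p = 0.00108) and without control 2 (1.29, limma adjusted p = 0.0146), and its limma adjusted p was 0.732 and 0.587 without knockout 1 and knockout 2.

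The other ligands, adaptors and kinases gave no call in limma either, and their counts at an unadjusted p under 0.05 are to be read against the 18.0% of all tested genes. Among 4 further ligands, 2 had lower values at an unadjusted p under 0.05, Epgn and Nrg2. Nrg2, neuregulin 2, had 398 and 380 in the knockouts and 456 and 719 in the controls (log2 fold change -0.56, limma adjusted p = 0.237), and Egf had 193 and 144 in the knockouts and 133 and 104 in the controls (0.50, limma adjusted p = 0.362). Both groups of Nrg2 and of Egf were apart, in opposite directions. Without control 1 and without control 2 the log2 fold change of Nrg2 was -0.89 and -0.23, and that of Egf 0.68 and 0.33. Of 17 adaptors, 0 passed and 5 had an unadjusted p under 0.05, and the median was 0.07. Eps8 stood at 0.81, Nck1 at -0.39 and Shc2 at 1.03 on the log2 scale. Eps8 had 1.21 without control 1 and 0.42 without control 2. Of 12 genes of the RAS-ERK chain 0 passed and 5 had an unadjusted p under 0.05: Rasa1, the RAS GTPase activator, had -0.42 and Nras -0.42. Of 13 genes of the PI3K-AKT chain 0 passed and 3 had an unadjusted p under 0.05: Pik3cd, a catalytic subunit typical of white blood cells, had 411 and 307 in the knockouts and 192 and 168 in the controls (0.98, limma adjusted p = 0.0825), with Pik3r3 at -0.59 and Pik3cb at -0.28. The summed value of 6 macrophage markers was 15618 and 13150 in the knockouts and 10894 and 9386 in the controls, none of them at 0, with 6 of 6 above. The sums of 5 T cell markers were 253 and 209 in the knockouts and 127 and 111 in the controls, with 4 of 5 above and none at 0. The sums of 5 B cell markers were 1280 and 523 in the knockouts and 232 and 157 in the controls, with 3 of 5 above, and Ms4a1 was at 0 in knockout 2 and control 2. The part of these cells in the Pik3cd difference was not tested.

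Of 9 tested membrane and chaperone partners of the receptors and ligands, 0 passed in limma. The libraries of 5 overlapped, where 51.2% of all tested genes did not overlap. In the other 4 both knockouts lay below both controls (25.6% of all tested genes). At an unadjusted p under 0.05, 3 had lower values, where 7.66% of all tested genes did, and the median was -0.19. Muc4, a mucin that binds ERBB2, had 65.7 and 57.3 in the knockouts and 188 and 123 in the controls (log2 fold change -1.29, SE 0.31, limma adjusted p = 0.101). Muc1, a mucin that associates with ErbB receptors, had -0.48 and Cd9, the tetraspanin partner of HB-EGF, had -0.33 (limma adjusted p = 0.111 and 0.145).

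**Figure D5:**
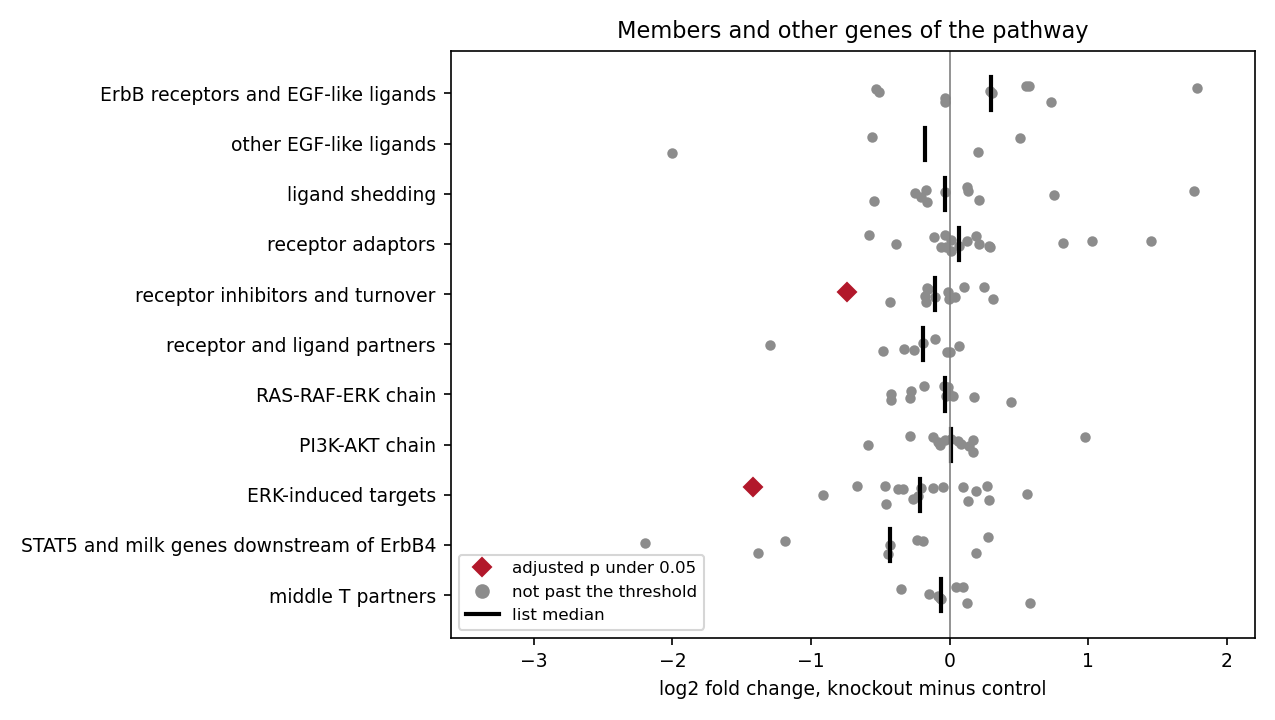
Log2 fold change, knockout minus control, of each of the 10 genes (top row) and of the other tested pathway genes by list, with diamonds for an adjusted p under 0.05 and bars at list medians. The only 2 diamonds are Errfi1 at -0.74 and Ier3 at -1.42, and none of the 10 genes is one.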

How the data were processed

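Each library had 1 deposited table of a normalised signal per gene, per the files' own values: read counts divided by 1 factor per library, since 100% of the values of a library were whole multiples of its smallest value within 1e-06. Bowtie 0.12.2 and the builds hg38, GRCm38 and mm10 are named, per the submitters' processing notes, with no role. The counting tool, strand setting and annotation were not stated in any source used here. Of 25806 gene identifiers 25795 were found in GENCODE M21 (GRCm38), 97.2% of them with the same coordinates. The steps near 1 did not meet the rule for recovering whole reads, so no count test was run. The test was limma (version 3.58.1, R version 4.3.3; trend and robust settings on, genotype alone in the model) on log2(value + 1), with Benjamini-Hochberg adjustment over all 22455 genes tested, and no counting intervals were computed. The procedure was tested on simulated data with the same dispersion for all genes and changes set only in genes of higher mean value. It does not give the power for genes of wider spread, such as Erbb4 and Nrg1, or for low ones such as Ereg. The 10 genes, the pathway and marker lists and the tests were chosen with earlier results of these data known. From each pathway list the 3 genes with the smallest unadjusted p and any past the threshold were named, except 1 that is not reported here, and others are marked. The symbol Nrdc was matched as Nrd1, and Nrg3 and Hgs were not tested. Alternatives were 2 other pseudocounts, 2 other filters, 2 other scalings, limma without trend and robust settings, each library left out and the replicate number as a block.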

Additional observations from a re-analysis of the deposited data

How the results depend on the processing

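Of the 10 ErbB and EGF-ligand genes none passed in the fit reported or in 11 of the 12 alternatives, and 0 to 2 passed with 1 library left out, the 2 being Egfr and Erbb4 without control 1. Where a library was left out, the lone library of its group was assumed to vary like the other group. The count over all genes was 33 and 258 with pseudocounts of 0.1 and 5, 332 with no filter, 66 with values of at least 10, 257 with quantile normalisation, 0 without trend and robust settings (2983 at an unadjusted p under 0.05) and 0 to 2361 with a library left out (0 without knockout 1 or knockout 2, with 1384 and 1805 at an unadjusted p under 0.05). The count over pathway genes was 1 with a pseudocount of 0.1, 1 with values of at least 10, 0 without trend and robust settings and 0 to 17 with a library left out. Erbb2 turned to 0.012 with quantile normalisation and ran from -0.12 to 0.046 with a library left out. Erbb3 turned to 0.038 with quantile normalisation and 0.0047 with equal library sums, and ran from -0.075 to 0.011 with a library left out. Both turned without control 1. With the replicate block 0 of the 10 genes, 4 pathway genes (Errfi1, Ier3, Timp3 and Csn1s1) and 367 of all genes passed. The labels do not tie the replicate numbers to a litter or day, and deviations of same-numbered libraries correlated at r = 0.12 across 22455 genes, which are not independent replicates. Low values limit genes such as Ereg and Epgn, since a few reads set them.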

Other observations

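STAT5 and milk genes, which lie downstream of ERBB4, had both knockouts below both controls in 5 of 9 tested and above in 2, where 25.6% and 25.5% of all tested genes did. Of the 9, 0 passed in limma, and the median log2 fold change was -0.43. At an unadjusted p under 0.05, 1 had higher and 2 lower values, where 10.3% and 7.66% of all tested genes did. Csn1s1, a casein gene, had 339 and 556 in the knockouts and 1478 and 2691 in the controls (log2 fold change -2.20, SE 0.40, limma adjusted p = 0.115). Csn1s2a, another casein gene, had 60.7 and 40.8 in the knockouts and 78.1 and 221 in the controls. Its log2 fold change was -1.38, and it was -2.13 without control 1 and -0.64 without control 2. Stat5a, the transcription factor itself, had 1392 and 1338 in the knockouts and 1125 and 1127 in the controls (log2 fold change 0.28, limma adjusted p = 0.224).

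Host proteins bound by middle T antigen were listed as well, and 0 of 9 passed in limma, where 0.583% of all tested genes did. At an unadjusted p under 0.05 there were 2, near the 18.0% of all tested genes. The SRC-family kinase gene Yes1 had 834 and 820 in the knockouts and 1072 and 1035 in the controls (log2 fold change -0.35, limma adjusted p = 0.163). Fyn had 398 and 439 in the knockouts and 361 and 216 in the controls (0.58, limma adjusted p = 0.269). The log2 fold change of Fyn was 0.95 without control 1 and 0.21 without control 2. Ppp2ca, a catalytic subunit of the phosphatase PP2A, had -0.15, with overlapping libraries.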
